A study of Sus scrofa with 10 samples.

Results

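The collagen genes of the pig were followed across testis and 2 kinds of tissue reconstituted from testicular cells. Members were all genes of the deposited table whose symbol has the form COL, a type number, A and a chain number. The table of 27376 genes held 43 of them, and 42 had at least 1 count, while COL10A1 had none. They were divided by structure into 11 fibrillar chains, 6 basement membrane chains (type IV), 10 fibril-associated chains with interrupted triple helices (FACIT) and 15 others. COL6A1 is not among the members and was not analysed here.

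The 10 libraries were made with QuantSeq, which counts reads at the 3′ end of polyA transcripts. They came from control testis (n = 2), from grafts of testicular fibroblasts alone (FO, n = 4) and from grafts of germ cells with testicular fibroblasts (GF, n = 4), all from primary cells of Sus scrofa. Per the labels, cells went into the back skin of a SKID mouse in concentrated Matrigel, and the grafts were collected 6 months later. The control titles bear the unexplained code 5D, and the control labels repeat the graft fields for cell type and growth, so the age and handling of that testis are unknown here. Age and graft cannot be told apart in comparisons with it. No strain, allele or animal number is given, and replicates may share an animal or culture, in which case the p-values describe technical spread. Any share of mouse host reads was not tested.

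Collagens are secreted trimers whose chains wind into a triple helix. Fibrillar collagens such as types I and III form the main fibres of connective tissue, and FACIT collagens decorate the surface of those fibres. Type IV collagen forms the sheet-like network of basement membranes, which in the testis underlie the seminiferous tubules and surround vessels. Its genes lie in head-to-head pairs, COL4A1 with COL4A2, COL4A3 with COL4A4 and COL4A5 with COL4A6. The chains of the first pair form the most widespread trimer, and those of the other pairs form trimers of particular basement membranes.

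Total counts ranged from 2915534 (GF 3) and 2948156 (GF 4) to 7013911. Over all genes, GF 3 and GF 4 differed more from GF 1 and GF 2 than FO libraries did from each other. Values are counts per 1000000 counts of a library after scaling with trimmed mean of M-values factors (CPM), and are compared between libraries for the same gene. A count of 0 allows up to 3 counts, which stand for 0.428 to 1.03 CPM at these totals and cover counting error only. The 2 marker genes of collagen-producing cells, COL1A1 and COL4A1, were found in every library. Skeletal muscle markers (10 genes, MYOG at 0 everywhere) reached a sum of 730 CPM in FO 1 and of 192 CPM in GF 3, and stayed at 2.42 to 26 CPM elsewhere. In bulk tissue, fewer cells of a type and less RNA per cell cannot be told apart.

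GF grafts, compared with FO grafts, had more of the COL4A1 to COL4A4 transcripts of type IV collagen and less of 5 fibrillar transcripts, type I and type III collagen among them. The grafts were set up to differ in germ cells. Markers of other cells differed too (below), so an influence of germ cells on the tissue cannot be told apart here. Of 42 members, 34 had enough counts to be tested with edgeR's quasi-likelihood test. At an adjusted p under 0.05, 7 were higher in GF, 13 were lower and 14 did not pass. That is 58.8% of the tested members, where 30.5% of all 13782 tested genes were called, 17.6% higher and 13.0% lower. The median log2 fold change was -0.93 over the tested members and -0.02 over all genes. The GF and FO libraries did not overlap for 20 tested members, 7 higher and 13 lower, where 36.0% of all genes did not overlap, 17.8% higher and 18.2% lower. These sets differ: COL1A1, COL16A1 and COL9A2 were called with overlap, and COL13A1, COL21A1 and COL8A2 did not overlap but did not pass. Below, differences are log2 fold changes ± SE, with p-values adjusted over all tested genes.

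**Figure D1:**
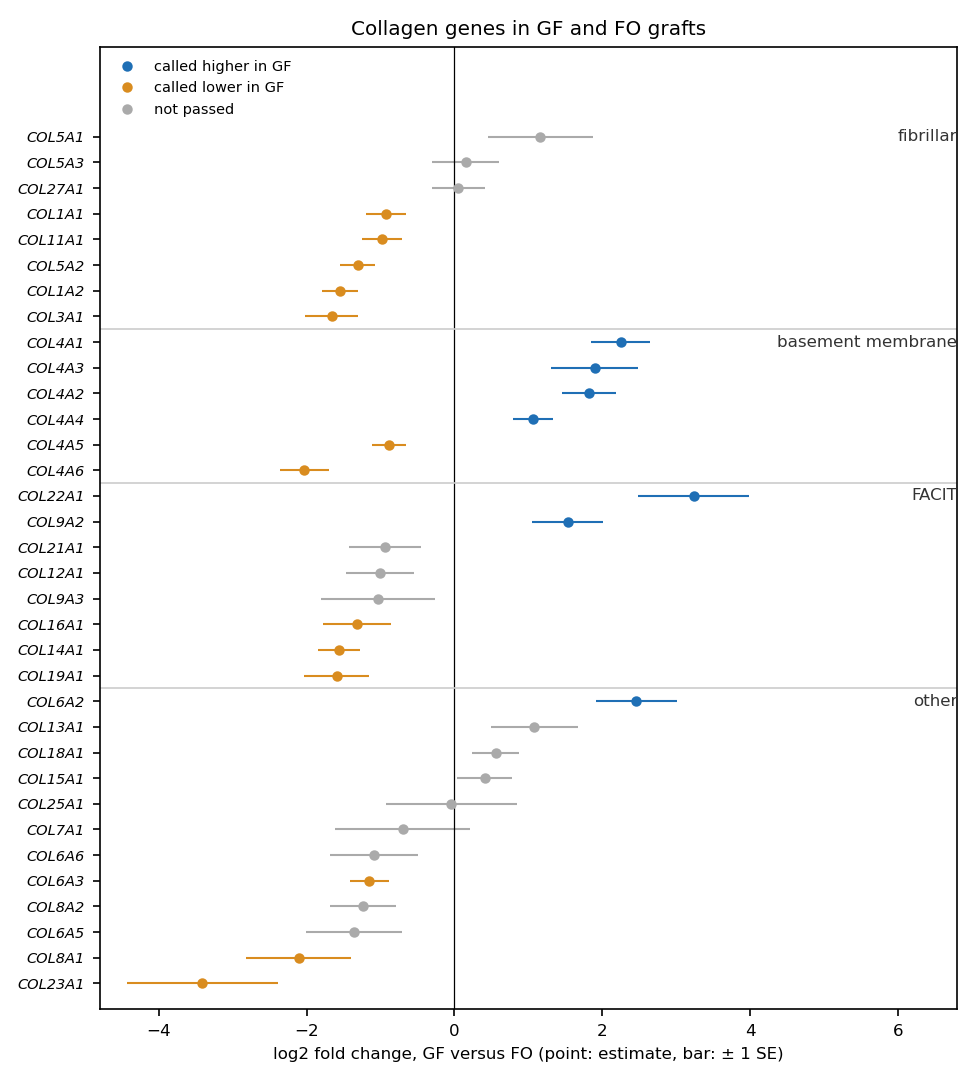
Log2 fold change of GF against FO (x axis, point with ± 1 SE) for the 34 tested collagen genes, grouped by class. COL4A1, COL4A2, COL4A3 and COL4A4 lie to the right of 0, COL4A5 and COL4A6 lie to the left, and 5 fibrillar genes are called lower.

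Of these 20 calls, 11 held when any single graft library was left out, 5 higher (COL4A1, COL4A2, COL4A4, COL6A2 and COL22A1) and 6 lower (COL1A2, COL3A1, COL5A2, COL4A6, COL14A1 and COL6A3). Without FO 1, 5 members were higher and 7 lower, while calls over all genes fell from 4205 of 13782 to 2902 of 14417. Without both FO 1 and GF 3, the libraries with most muscle transcripts, 7 calls held (COL4A1, COL4A2, COL22A1, COL1A2, COL5A2, COL4A6 and COL14A1), and the other 13 genes kept their direction at adjusted p from 0.0504 (COL6A3) to 0.214 (COL9A2). Scaling by total counts gave 7 higher and 10 lower members, moved the median of all genes from -0.02 to 0.13 and raised the share of higher calls among all called genes from 57.5% to 69.1%.

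Fibrillar collagens fell in GF wherever they were called: of 8 tested chains 5 fell and 3 did not pass. Of all tested genes 13.0% were called lower. COL1A2, the α2 chain of type I collagen (chromosome 9, 74174484 to 74210407 of Sscrofa11.1), had 1271, 962.5, 1097 and 1396 CPM in FO 1 to FO 4 and 542.2, 353.7, 421.5 and 296.6 CPM in GF 1 to GF 4. Every GF library lay below every FO library (-1.55 ± 0.24, adjusted p = 0.000831). COL1A1, the α1 chain of the same trimer (chromosome 12, 26379087 to 26397180), had 1413, 1125, 1436 and 2207 CPM in FO and 1131, 621, 639 and 848.8 CPM in GF. GF 1 and FO 2 were nearly level, and the fall (-0.93 ± 0.27, adjusted p = 0.0215) was not called without FO 4, GF 2 or GF 3 (adjusted p = 0.051 to 0.0815) or with scaling by total counts (0.0553).

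COL3A1, the single chain of type III collagen, which shares fibres with type I, had 800.3, 493.9, 551.6 and 739.9 CPM in FO and 341, 218.6, 175.4 and 82.63 CPM in GF. GF 4 was the lowest of all 10 libraries, and the groups did not overlap (-1.66 ± 0.36, adjusted p = 0.00519). COL5A2, a chain of the type V collagen found inside type I fibrils, lies 16.2 kb from COL3A1 on chromosome 15. It had 116, 95.27, 81.8 and 111.2 CPM in FO and 50.37, 44.23, 30.38 and 37.34 CPM in GF, again with GF lower throughout (-1.31 ± 0.24, adjusted p = 0.00191).

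COL11A1, of a fibrillar collagen best known from cartilage, had 60.21, 45.68, 34.61 and 43.44 CPM in FO and 22.93, 17.51, 24.51 and 28 CPM in GF. All GF libraries were lower (-0.98 ± 0.27, adjusted p = 0.0178), and the call ended without FO 1 (0.0739). The remaining tested chains, COL5A1, COL5A3 and COL27A1, did not pass (adjusted p = 0.238, 0.819 and 0.932). COL5A1 had 1.5, 2.166, 11.05 and 5.532 CPM in GF, with GF 3 highest, and 1.115 to 3.045 CPM in FO.

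**Figure D2:**
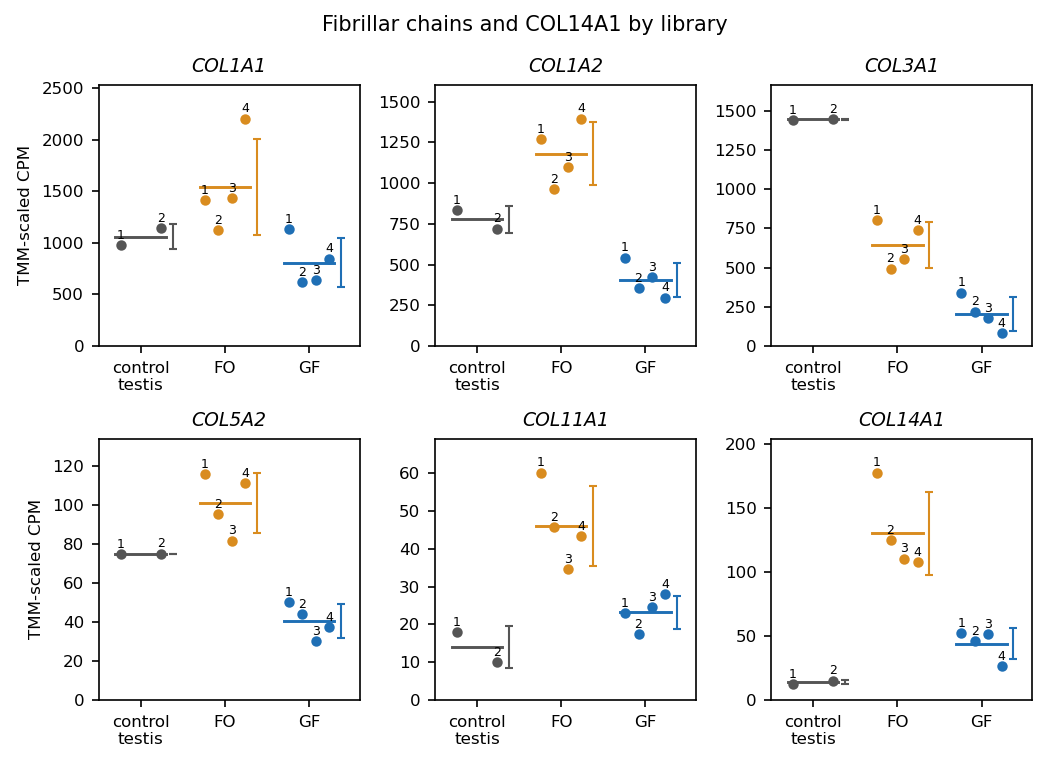
CPM (y axis, linear, from 0) of COL1A1, COL1A2, COL3A1, COL5A2, COL11A1 and COL14A1 in each library, with replicate numbers at the points, group means as lines and ± 1 SD as bars (n = 2 for control testis, 4 for FO and 4 for GF). All but COL1A1 are lower in every GF than in every FO library, and control testis is highest for COL3A1.

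Summed over the 11 fibrillar genes, FO libraries held 3721, 2771, 3261 and 4589 CPM, GF libraries 2146, 1298, 1380 and 1387 CPM and control testis 3417 and 3463 CPM. The GF sums lay below all others, and the FO sums lay on both sides of control testis; such sums carry no test. Fibroblast markers (7 genes, all found in every library) also summed to less in GF, 280 to 712 CPM, than in FO, 1130 to 2250 CPM. Most of each sum was DCN, with 7095, 5086, 4235 and 6621 counts in FO and 2364, 1849, 757 and 535 in GF. The sums thus say little of the other markers. Of the 7 markers, DCN (-2.06) and PDGFRA (-1.25) fell, LUM rose (2.25) and 4 did not pass, where 30.5% of all genes were called. The part of fibroblast number or state in the fibrillar result was not tested.

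The type IV genes split by locus: all 6 were tested, 4 were higher in GF and 2 lower. Of all tested genes 17.6% were called higher and 13.0% lower. COL4A1 (chromosome 11, 76858332 to 76997409) had 61.88, 49.37, 88.72 and 119.9 CPM in FO and 290.2, 165.4, 555.1 and 500.6 CPM in GF. Each GF library exceeded each FO library (2.25 ± 0.40, adjusted p = 0.0019). Without GF 3 and GF 4, the highest of them, the difference was 1.49 (adjusted p = 0.0062). COL4A2, its neighbour (chromosome 11, 76996885 to 77161617), had 72.19, 55.68, 100.5 and 141.5 CPM in FO and 257.2, 213.8, 258.6 and 573.2 CPM in GF. GF 4 stood far above the other GF libraries, which still exceeded all FO libraries (1.82 ± 0.37, adjusted p = 0.00392). The RefSeq models of these neighbours overlap by 525 bases.

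COL4A4, of a chain set known from the filtration barrier of the kidney (chromosome 15, 128472228 to 128612302), had 61.6, 89.39, 110.3 and 46.83 CPM in FO and 173, 155.8, 145.7 and 165.6 CPM in GF. The GF libraries formed a narrow band above FO (1.06 ± 0.27, adjusted p = 0.0121). Its model overlaps that of RHBDD1 by 26.9 kb, and since the use of strand in counting is unknown here, reads of these genes may be mixed. RHBDD1 had 85 to 111 counts in FO and 101 to 152 in GF, where COL4A4 had 221 to 526 and 422 to 863.

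COL4A3, the partner of COL4A4, was close to the limit of detection, with 3, 6, 14 and 8 counts in FO and 41, 46, 10 and 15 in GF. In CPM every GF library exceeded FO, GF 3 (3.452) and FO 3 (2.936) being nearest (1.90 ± 0.59, adjusted p = 0.0296). The call ended without FO 1, FO 2, FO 4, GF 1 or GF 2 (adjusted p = 0.0685 to 0.0974), with no filter on low counts (0.0564) and with the replicate number as a block (0.0828).

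The pair on chromosome X went the other way. COL4A6 (88634925 to 88750938) had 23.97, 25.01, 18.88 and 29.03 CPM in FO and 6.644, 5.235, 6.904 and 4.84 CPM in GF. The groups were far apart (-2.03 ± 0.33, adjusted p = 0.00115). COL4A5, the next gene of the family on that chromosome, had 104, 89.61, 74.67 and 83.91 CPM in FO and 60.44, 37.37, 51.09 and 41.49 CPM in GF. It was lower in all GF libraries (-0.88 ± 0.23, adjusted p = 0.0144), a call that ended without FO 1 (0.0553).

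**Figure D3:**
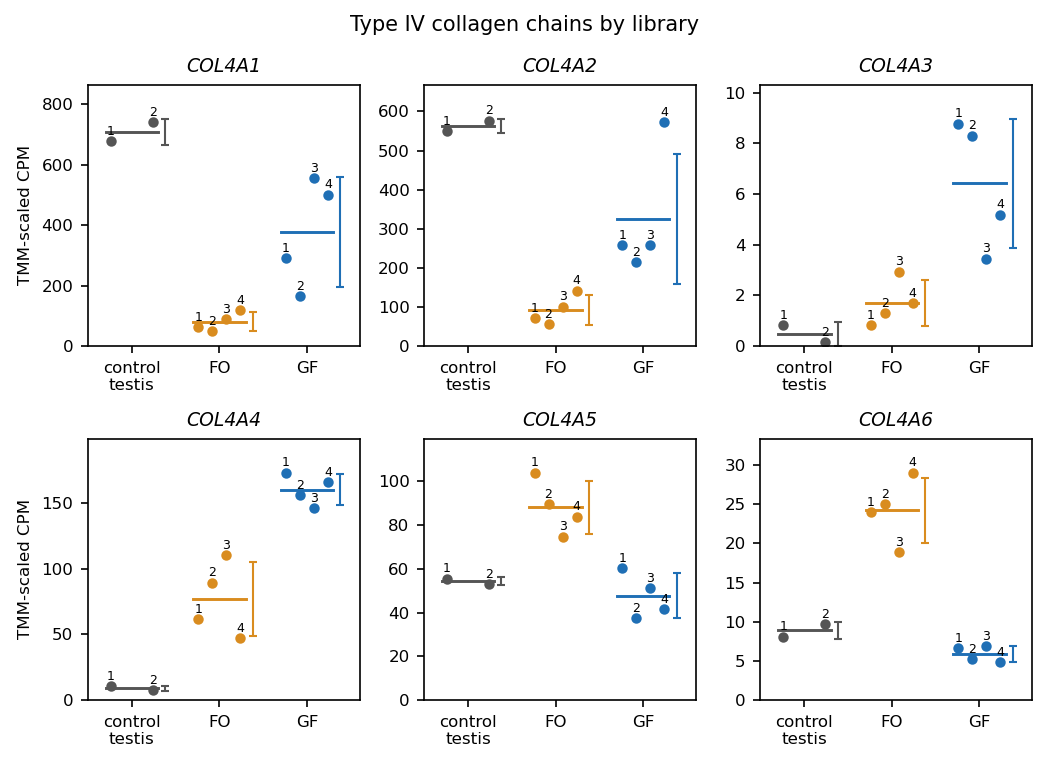
CPM (y axis, linear, from 0) of the 6 type IV collagen genes in each library, with replicate numbers at the points, group means as lines and ± 1 SD as bars (n = 2, 4 and 4). GF exceeds FO for COL4A1, COL4A2, COL4A3 and COL4A4 and lies below it for COL4A5 and COL4A6.

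The make-up of type IV counts differed accordingly. COL4A5 and COL4A6 took 39.4%, 36.9%, 23.6% and 26.7% of the type IV counts in FO, 8.43%, 7.27%, 5.68% and 3.59% in GF and 4.88% and 4.52% in control testis. By this share GF lay near control testis and FO far above it. COL4A1 and COL4A2 took 94.3% and 94.9% in control testis, 33.8% to 61.8% in FO and 64.7% to 83.2% in GF. By that share GF lay between FO and control testis. The share of each pair depends on the counts of the others. COL4A3 and COL4A4 took 0.86% and 0.534% in control testis but 11.5% to 29.2% in FO and 13.2% to 28% in GF, so both grafts stood apart from testis. Summed type IV values were 310.4 to 422.9 CPM in FO, 585.8 to 1291 CPM in GF and 1303 and 1386 CPM in control testis.

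Markers of other cells also differed between GF and FO, some higher and some lower, where 30.5% of all tested genes were called. Sertoli cell markers (6 genes, each found in every library) had sums of 4770 to 8570 CPM (FO) and 14600, 16600, 40000 and 45100 CPM (GF 1 to GF 4), mostly through CLU, with 4 higher and WT1 lower. Smooth muscle and myoid markers (5 genes, each found in every library) had sums of 176 to 282 CPM (FO) and 554 to 766 CPM (GF), and ACTA2 (1.29), MYH11 (2.57), TAGLN (1.36) and CNN1 (2.55) rose. Endothelial markers (7 genes, CDH5 at 0 in GF 3 and GF 4 and TEK at 0 in GF 3) had sums of 105 to 203 CPM (FO) and 33.6 to 65.4 CPM (GF). Of 6 tested, EMCN fell (-3.17) and 5 did not pass. EMCN had 280, 366, 241 and 285 counts in FO and 55, 51, 20 and 3 in GF, a large part of the FO sums. Germ cell markers (4 genes) had sums of 1.7 to 5.22 CPM (FO) and 348 to 1510 CPM (GF), with all 4 higher. Macrophage markers (6 genes) had sums of 20.9 to 111 CPM (FO) and 4.83 to 6.64 CPM (GF), and the 3 tested were lower. The part of these cell types in the type IV result was not tested.

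Among FACIT collagens, of 8 tested genes 2 rose, 3 fell and 3 did not pass, 62.5% called where 30.5% of all genes were. COL14A1, which binds the surface of fibrils (chromosome 4, 18690197 to 18925111), had 177.8, 124.8, 110.5 and 108.1 CPM in FO and 52.29, 46.22, 51.44 and 26.62 CPM in GF. All GF libraries were lower (-1.56 ± 0.28, adjusted p = 0.00175). COL19A1, a sparse FACIT chain, had 12.82, 11.96, 12.38 and 6.78 CPM in FO and 2.762 to 4.929 CPM in GF. FO 4 was the lowest FO library, still above GF (-1.59 ± 0.44, adjusted p = 0.0179), and the call ended without FO 1, FO 2 or FO 3 (adjusted p = 0.0612 to 0.0665).

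COL16A1, a fibril-associated chain of many connective tissues, had 69.13, 56.33, 74.46 and 145.1 CPM in FO and 61.08, 41.16, 24.17 and 10.72 CPM in GF. GF 1 overlapped FO, and FO 4 was highest. The fall (-1.32 ± 0.46, adjusted p = 0.0456) was not called without FO 1, FO 2, FO 3, FO 4, GF 2, GF 3 or GF 4 (adjusted p = 0.0533 to 0.164), with the replicate number as a block (0.06), with scaling by total counts (0.103) or without both GF 3 and GF 4 (-0.78, 0.122).

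COL22A1, known from junctions of muscle with tendon, had 1.115, 0.87, 0.2097 and 0.2119 CPM in FO, on 1 to 4 counts, and 6.644, 2.347, 7.595 and 6.569 CPM in GF. It rose without overlap (3.24 ± 0.75, adjusted p = 0.0069). FO 1 and GF 3, the libraries with most skeletal muscle transcripts, had the highest CPM of their groups, though FO 1 and FO 2 both had 4 counts. The call held without both FO 1 and GF 3. The part of muscle transcripts in the result was not tested.

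COL9A2, a chain of the type IX collagen of cartilage (chromosome 6, 96065282 to 96081547), had 83.07, 83.09, 243.1 and 125 CPM in FO and 237.5, 146.4, 591.7 and 563.2 CPM in GF. FO 3 exceeded GF 1 and GF 2, while GF 3 and GF 4 were far above all FO libraries. The rise (1.53 ± 0.48, adjusted p = 0.0296) was not called without FO 1, FO 2, FO 4, GF 3 or GF 4 (adjusted p = 0.0721 to 0.0946), and without both GF 3 and GF 4 it was 0.50 (0.459). The partner chain COL9A3 did not pass (-1.03 ± 0.77, adjusted p = 0.332), and COL9A1 had 0 to 1 counts in FO and 0 to 5 in GF. Cartilage markers (8 genes) had sums of 18.7 to 35.4 CPM (FO) and 16.5, 19.3, 116 and 19.4 CPM (GF 1 to GF 4). Of the 2 markers tested, COMP was higher (29, 46, 313 and 39 counts in GF and 0 in FO) and HAPLN1 lower (-2.55, adjusted p = 0.00222). ACAN had 0, 1, 3 and 2 counts in FO and 4, 9, 0 and 0 in GF, and MATN4 had 2, 2, 2 and 5 in FO and 4, 12, 16 and 0 in GF. MATN1 was at 0 in all grafts but GF 1. MATN3 had 10, 11, 8 and 21 counts in FO and 8, 8, 0 and 2 in GF. UCMA had 5, 0, 7 and 6 in FO and 2, 6, 0 and 0 in GF, and CNMD had 0, 9, 12 and 0 in FO and 10, 4, 3 and 2 in GF. The part of cartilage transcripts in the COL9A2 difference was not tested. COL12A1 and COL21A1 did not pass (adjusted p = 0.115 and 0.168).

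Of the 12 tested other collagens 1 rose, 3 fell and 8 did not pass, 33.3% called where 30.5% of all genes were. Type VI chains, which build beaded filaments around cells, are among them. COL6A2, on an unplaced scaffold, had 100.9, 91.13, 166.7 and 145.1 CPM in FO and 257.2, 203.1, 951.8 and 1347 CPM in GF. Every GF library was higher, GF 3 and GF 4 most of all (2.46 ± 0.55, adjusted p = 0.00577), and without those libraries the difference was 0.85 (adjusted p = 0.0127). COL6A3, which joins the same trimers, had 116, 79.17, 84.74 and 127.6 CPM in FO and 61.51, 48.2, 38.32 and 35.61 CPM in GF. It fell without overlap (-1.15 ± 0.26, adjusted p = 0.00622).

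The log2 ratio of COL6A2 to COL6A3 counts was -0.20, 0.20, 0.98 and 0.19 in FO, 2.06, 2.07, 4.63 and 5.23 in GF and 1.83 and 2.04 in control testis. GF 1 and GF 2 lay near control testis, FO below and GF 3 and GF 4 above; this pair was chosen after its values were seen and has no test. COL6A5 and COL6A6 did not pass (adjusted p = 0.134 and 0.189). COL6A6 was lower without GF 3 (-1.94, 0.0164), the GF library with most of it, and both were lower without GF 3 and GF 4 (0.0394 and 0.00815).

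COL8A1, a short chain of the network found in vessel walls, had 17.56, 11.53, 10.07 and 5.933 CPM in FO and 4.072, 3.791, 2.071 and 0 CPM in GF. All GF libraries were lower (-2.11 ± 0.71, adjusted p = 0.041). The call ended without FO 1, FO 2, FO 3, FO 4 or GF 3 (adjusted p = 0.0555 to 0.148) and with scaling by total counts (0.0683), and the value was -1.51 (0.0197) without GF 3 and GF 4. COL8A2 of the same network had 5.663 to 11.02 CPM in FO and 2.766 to 4.143 CPM in GF and did not pass (-1.24 ± 0.45, adjusted p = 0.0565), though DESeq2 called it (0.0215), as did the fit without GF 3 and GF 4 (0.0458).

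COL23A1, a transmembrane collagen, had 16, 45, 29 and 39 counts in FO and 11, 0, 0 and 0 in GF. GF 1 alone among GF libraries held any (-3.41 ± 1.02, adjusted p = 0.0247). The call ended without FO 1, FO 2, FO 3 or FO 4 (adjusted p = 0.0523 to 0.0756), and the value was -4.41 (0.0279) with the replicate number as a block and -2.67 (0.0227) without GF 3 and GF 4. Without GF 1, GF had 0 counts of COL23A1 against 129 in FO. Taken at 3 counts over the GF group, that was 27.6-fold lower in GF. The lower limit of the 95% counting interval was 22.1-fold.

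COL7A1 of anchoring fibrils, the transmembrane COL13A1 and COL25A1, and COL15A1 and COL18A1, multiplexins of basement membrane zones, did not pass. COL15A1 had 27.87 to 94.39 CPM in FO and 46.61 to 101 CPM in GF, and COL18A1 had 23.41 to 41.95 and 30.33 to 71.91 CPM. Both overlapped (0.41 ± 0.37, adjusted p = 0.424, and 0.56 ± 0.32, adjusted p = 0.201). Normal intervals from the SE were -0.32 to 1.14 and -0.06 to 1.18, which are narrower than true 95% intervals from so few libraries.

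**Figure D4:**
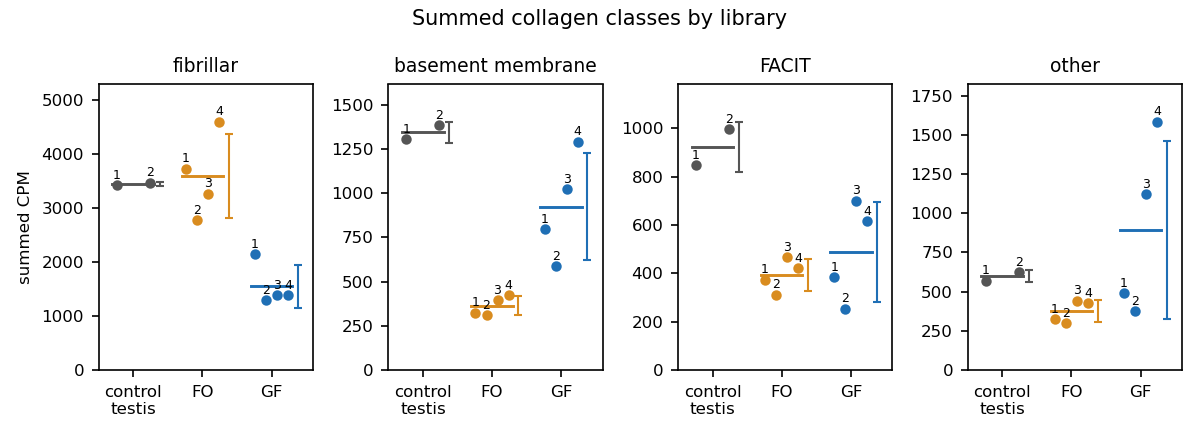
Summed CPM (y axis, linear, from 0) of each collagen class in each library, with replicate numbers at the points, group means as lines and ± 1 SD as bars (n = 2, 4 and 4). GF lies below FO for fibrillar and above FO for basement membrane collagens, and GF 3 and GF 4 are the highest libraries for the other collagens.

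Summed FACIT values were 311.7 to 467.3 CPM in FO, 254 to 701.2 CPM in GF and 848.5 and 996.8 CPM in control testis. The other collagens had sums of 301.2 to 443.2 CPM (FO), 488.7, 375.3, 1123 and 1584 CPM (GF 1 to GF 4) and 571 and 624.5 CPM in control testis. Over all 42 members FO and GF overlapped, at 3695 to 5858 and 2513 to 4878 CPM, and both lay below the 6140 and 6470 CPM of control testis.

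Whether chains changed by unequal folds was tested on the log2 ratio of their counts within a library, for 4 pairs. The ratio of COL1A1 to COL1A2 was 0.15, 0.23, 0.39 and 0.66 in FO and 1.06, 0.81, 0.60 and 1.52 in GF. FO 4 exceeded GF 3, and the difference of 0.64 did not pass (exact two-sided permutation p = 0.0571, adjusted 0.114, where the smallest p that 4 against 4 allows is 0.0286). The ratio of COL1A1 to COL3A1 was 2.11 ± 0.84 in GF and 1.24 ± 0.32 in FO (SD, n = 4 each), with overlap (exact two-sided permutation p = 0.0571, adjusted 0.114). For COL4A1 to COL4A2 the ratio was -0.22, -0.17, -0.18 and -0.24 in FO and 0.17, -0.37, 1.10 and -0.20 in GF. FO was tight and GF spread to both sides of it (exact two-sided permutation p = 0.371, adjusted 0.495). The ratio of COL15A1 to COL18A1 was 0.75 ± 0.61 in GF and 0.78 ± 0.40 in FO (SD, n = 4 each) (exact two-sided permutation p = 0.971, adjusted 0.971).

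Against control testis, both grafts had far more COL4A4 and more COL14A1, and less type IX collagen COL9A1 and COL9A3. The comparisons share the control libraries and 1 fit, so their values are given side by side. Of 39 tested members, 7 were higher and 8 lower in GF (38.5%, against 25.8% of all 15877 tested genes, 14.0% higher and 11.8% lower). In FO, 8 were higher and 8 lower (41.0%, against 18.7% of all genes, 8.12% higher and 10.6% lower). GF and control libraries did not overlap for 7 higher and 14 lower members (all genes 47.2%, 21.9% higher and 25.3% lower), and FO and control for 17 higher and 13 lower (all genes 58.7%, 26.7% higher and 32.0% lower). The median log2 fold change was -0.39 in GF and 0.43 in FO, where all genes had 0.03 and -0.04.

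These calls leaned on the pair of control libraries. Without control 1, 1 member was higher and 2 lower in GF, and 3 higher and 7 lower in FO; without control 2, 1 was higher and 2 lower in GF, and 3 higher and 4 lower in FO. Calls that held without any single library were COL4A4, COL3A1 and COL9A3 for GF and COL4A4, COL14A1, COL4A1, COL4A2, COL9A2 and COL22A1 for FO. With only GF and control testis in the fit, COL1A2, COL5A2, COL18A1, COL25A1, COL26A1, COL6A2, COL6A6 and COL8A2 were no longer called (adjusted p = 0.0589 to 0.14). Control testis has replicates 1 and 2 only, so a block on replicate number compares it directly with graft libraries 1 and 2 alone. Its deviations correlated with theirs at r of -0.05 to 0.07, so no pairing with control testis was seen. With that block, COL4A1 (-1.60, adjusted p = 0.0021), COL4A2 (-1.31, 0.00344) and COL9A2 (-1.88, 0.00141) were also lower in GF. COL5A2 (0.0522), COL6A2 (0.77, 0.227), COL8A2 (0.0589) and COL26A1 (2.84, 0.175) were not called. In FO the block called COL8A1 and COL12A1 higher and COL5A1, COL6A2 and COL25A1 lower (adjusted p = 0.0328 to 0.0489), did not call COL19A1 (0.0573), and moved COL4A1 to -3.78 and COL9A2 to -3.34.

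Markers of other cells differed from control testis as well. Leydig cell markers (4 genes) had sums of 13700 and 16300 CPM (control), 411 to 3520 CPM (FO) and 1310 to 2870 CPM (GF), with all 4 lower in both grafts. Macrophage markers had sums of 238 and 295 CPM in control testis, with 6 of 6 lower in GF and 4 in FO. Fibroblast markers (7 genes) had sums of 1310 and 1330 CPM (control), 1130 to 2250 CPM (FO) and 280 to 712 CPM (GF), mostly through DCN. Of these, 6 were lower in GF and 4 in FO, where DCN (0.85), PDGFRA (0.17) and THY1 (-1.39) did not pass. Of 7 endothelial markers 4 were lower in GF, and in FO 2 were lower and 1 higher. Germ cell markers (4 genes) had 3 higher in GF and 3 lower in FO. Sertoli cell markers (6 genes) had sums of 4590 and 5130 CPM (control), 4770 to 8570 CPM (FO) and 14600 to 45100 CPM (GF). They had 3 higher and 2 lower in GF, and 1 higher and 1 lower in FO. Smooth muscle and myoid markers (5 genes) had sums of 308 and 361 CPM (control), 176 to 282 CPM (FO) and 554 to 766 CPM (GF), with 2 higher in GF and 1 lower in FO. Of all tested genes, 25.8% were called in GF and 18.7% in FO. The part of these cell types in the differences from control testis was not tested.

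**Figure D5:**
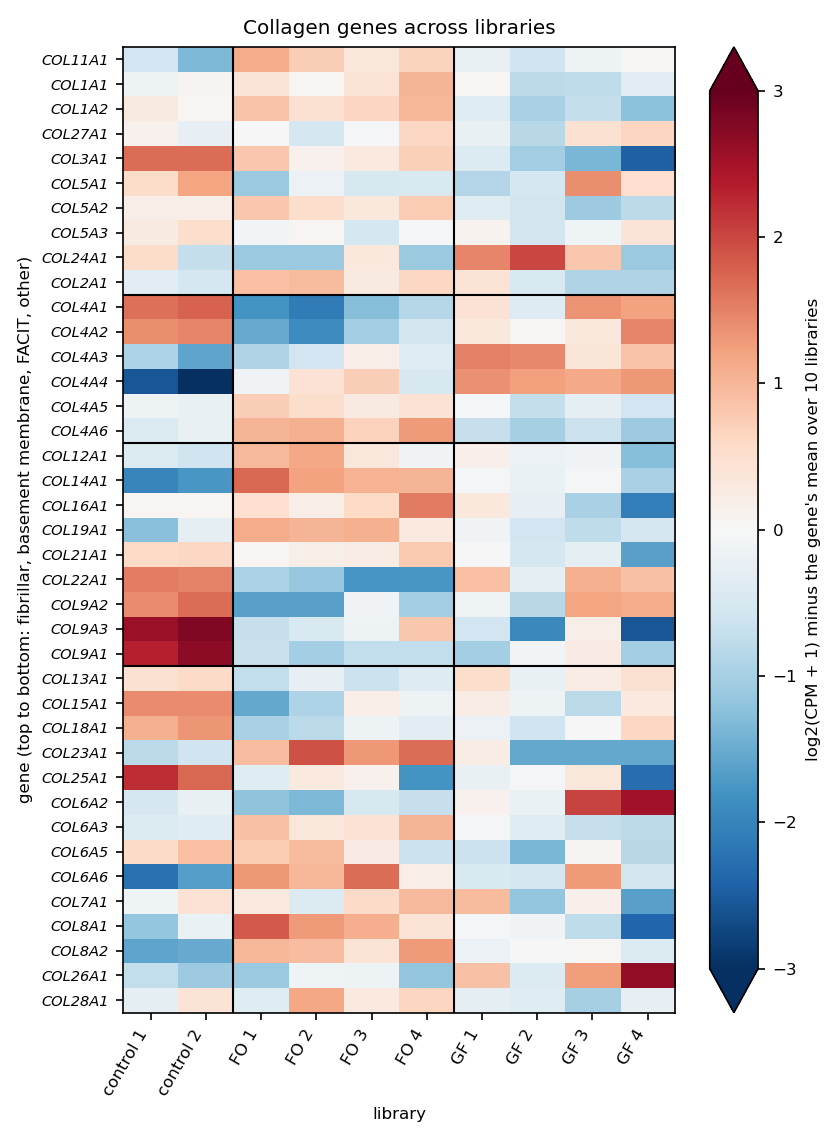
Collagen genes (y axis, by class) in each library (x axis), coloured by log2(CPM + 1) minus the gene's mean over the 10 libraries, with colours saturating at the ends of the scale. COL4A4 is lowest in control testis, COL9A1 and COL9A3 are highest there, and COL6A2 is highest in GF 3 and GF 4.

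COL4A4 had 10.39 and 7.253 CPM in control testis, under all graft libraries, and was higher in GF (4.18 ± 0.41, adjusted p = 3.09e-05) and in FO (3.13 ± 0.38, adjusted p = 0.000135). The overlapping RHBDD1 had 160 and 161 counts there, where COL4A4 had 63 and 48. COL4A3 had 5 and 1 counts in control testis and was higher in GF (3.68 ± 0.96, adjusted p = 0.0135), while in FO it did not pass (1.77 ± 0.92, adjusted p = 0.205). Its GF call ended without control 2 (2.91, 0.174) and without control 1 (0.0511), which left 1 control count and a ratio of 46.3 (95% counting interval 8.15 to 1850).

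COL4A1 had 678.1 and 739.5 CPM and COL4A2 550 and 576.3 CPM in control testis. Both were lower in FO (-3.15 ± 0.42, adjusted p = 0.000252, and -2.61 ± 0.40, adjusted p = 0.000635). In GF neither passed (-0.91 ± 0.42, adjusted p = 0.128, and -0.79 ± 0.40, adjusted p = 0.162), although COL4A1 was below control testis in every GF library. COL4A2 was lower in GF without GF 4 (-1.21, 0.0177), and without GF 3 and GF 4 so were both (-1.65, 0.00606, and -1.27, 0.0108). COL4A6 was higher in FO (1.45 ± 0.39, adjusted p = 0.0203), a call lost without control 1, control 2, FO 2 or FO 4 (0.0556 to 0.213), and did not pass in GF (0.267). COL4A5 passed in neither comparison (adjusted p = 0.631 in GF and 0.0941 in FO), though it was called in FO by DESeq2 (0.0324) and with only FO and control testis in the fit (0.00517).

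Among fibrillar chains, COL3A1 had 1441 and 1448 CPM in control testis and was lower in GF (-2.82 ± 0.39, adjusted p = 0.000325). In FO it did not pass (-1.16 ± 0.39, adjusted p = 0.0549), though it was called there without GF 1 or GF 4 (0.0281 and 0.0108) and by DESeq2 (0.0359). COL3A1 was also called lower in FO with only FO and control testis in the fit (-1.13, 0.000306). The same held without GF 3 and GF 4 (-1.13, 0.000409) and with no filter on low counts (0.0427). COL1A2 had 834.8 and 720.1 CPM in control testis and was lower in GF (-0.95 ± 0.26, adjusted p = 0.0179), as was COL5A2 (-0.88 ± 0.26, adjusted p = 0.0244). In FO, COL1A2 was called with only FO and control testis in the fit (0.64, 0.0146). In GF, COL1A2 and COL5A2 lost the call without control 1 or control 2 (0.0847 to 0.154 and 0.14 to 0.154). COL1A1 had 976.4 and 1146 CPM in control testis and passed in neither comparison (adjusted p = 0.37 in GF and 0.266 in FO). COL11A1 was higher in FO (1.71 ± 0.37, adjusted p = 0.0062), but not without control 2 (0.137).

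COL14A1 had 12.7 and 15.11 CPM in control testis, below every graft library. It was higher in FO (3.22 ± 0.37, adjusted p = 8.64e-05) and in GF (1.67 ± 0.35, adjusted p = 0.00394), the latter not without control 1 or control 2 (0.0511 to 0.0718). The type IX chains went the other way. COL9A3 had 46.99 and 53.49 CPM in control testis, 3.902 to 12.93 CPM in FO (-2.85 ± 0.69, adjusted p = 0.0114) and 0.3457 to 7.94 CPM in GF (-3.90 ± 0.72, adjusted p = 0.00199). The FO call ended without control 1 or control 2 (0.07 to 0.105), and the GF value was -4.65 without GF 3. Its model overlaps that of TCFL5 by 323 bases, and TCFL5 had 137 and 124 counts in control testis, 50 to 118 in FO and 104 to 596 in GF.

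COL9A1 had 56 and 80 counts in control testis and 3 over FO, 63.2-fold lower (95% counting interval 21.2 to 310, adjusted p = 0.00351, and 0.0552 without control 2). It was also lower in GF (-4.18 ± 1.02, adjusted p = 0.00981), at -4.82 without GF 3 and not called without control 1 or control 2 (0.0639 to 0.116). COL9A2 had 698.1 and 833.1 CPM in control testis, was lower in FO (-2.52 ± 0.51, adjusted p = 0.00424) and did not pass in GF (-0.99 ± 0.51, adjusted p = 0.17). Without GF 3 and GF 4 it was lower in GF too (-2.01, 0.0259). COL22A1 had 10.88 and 10.58 CPM in control testis, was lower in FO (-4.14 ± 0.73, adjusted p = 0.00176) and did not pass in GF (-0.90 ± 0.66, adjusted p = 0.335). COL19A1 was higher in FO (1.89 ± 0.61, adjusted p = 0.0441), at 2.70 without control 2, and its call was lost without control 1, control 2, FO 1, FO 2 or FO 3 (0.101 to 0.375).

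Both multiplexins were lower in either graft. COL15A1 had 219.9 and 219.2 CPM in control testis and was lower in GF (-1.46 ± 0.40, adjusted p = 0.0179) and FO (-1.87 ± 0.40, adjusted p = 0.00606). COL18A1, whose end yields endostatin, had 99.09 and 117.1 CPM and was lower in GF (-1.19 ± 0.34, adjusted p = 0.0196) and FO (-1.74 ± 0.33, adjusted p = 0.00301). The GF calls ended without control 1 or control 2 (0.0969 to 0.106 and 0.0798 to 0.164), and that of COL15A1 also without GF 3 and GF 4 (0.0523). The FO calls ended without control 2 (0.0537 and 0.0511).

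COL6A6 had 1 and 5 counts in control testis and was higher in FO (4.49 ± 0.99, adjusted p = 0.00685) and in GF (3.39 ± 0.96, adjusted p = 0.0201). Without control 1 these were 3.82 (0.102) and 2.71 (0.187). Leaving out control 2 keeps 1 control count and gives ratios of 66.9 (95% counting interval 11.9 to 2660) in FO and 28.1 (95% counting interval 4.88 to 1120) in GF. The GF value was 2.55 without GF 3. COL6A3 was higher in FO (1.10 ± 0.31, adjusted p = 0.0242), lost without control 1, control 2, FO 1 or FO 4 (0.0621 to 0.199), and did not pass in GF (0.924). COL6A2 was higher in GF (1.92 ± 0.65, adjusted p = 0.0443), lost without control 1, control 2, FO 1, FO 2, FO 3, FO 4, GF 3 or GF 4 (0.0565 to 0.243), and at 0.32 (0.365) without GF 3 and GF 4.

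COL8A2 had 4 and 5 counts in control testis and was higher in FO (3.54 ± 0.68, adjusted p = 0.00311) and in GF (2.30 ± 0.66, adjusted p = 0.0214), but not without control 1 or control 2 (0.0624 to 0.0639 in FO and 0.164 to 0.173 in GF). COL25A1, a transmembrane collagen, had 132 and 101 counts in control testis. It was lower in GF (-2.58 ± 0.87, adjusted p = 0.0427), lost without control 1, control 2, FO 1, FO 2, FO 3, GF 1 or GF 2 (0.0579 to 0.239), and did not pass in FO (-2.54 ± 0.86, adjusted p = 0.055), though it was called there without GF 3 or GF 4 (0.00931 to 0.0399). COL26A1 had 4 and 2 counts in control testis and 19, 6, 16 and 47 in GF. That rise (3.72 ± 1.26, adjusted p = 0.0438) was lost without control 1, control 2, FO 1, FO 2, FO 3 or GF 4 (0.0537 to 0.286). The value was 2.81 without GF 4, and the ratio without control 1 was 18.2 (95% counting interval 4.89 to 153).

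COL2A1, COL5A1, COL5A3, COL7A1, COL12A1, COL13A1, COL16A1, COL21A1, COL24A1, COL27A1 and COL28A1 passed in neither comparison with control testis, with or without any single library. Other fits did call 4 of them. With only FO and control testis in the fit, COL5A1 (adjusted p = 0.00624), COL12A1 (0.0109), COL13A1 (0.0426) and COL2A1 (0.024) were called in FO. Without GF 3 and GF 4, COL5A1, COL12A1 and COL2A1 were called in FO (0.0105, 0.0121 and 0.0429) and COL5A1 also in GF (-2.03, 0.0164). COL6A5, COL8A1 and COL23A1 did not pass with all libraries but were called under several other settings. COL6A5 was lower in GF without GF 3 (-2.20, adjusted p = 0.0291) and without GF 3 and GF 4 (0.0132). COL8A1 was higher in FO without GF 4 (2.21, 0.0191), with only FO and control testis in the fit (0.00206) and by DESeq2 (0.0288). COL23A1 was higher in FO without GF 1 or GF 4 (0.0241 to 0.0493) and with only FO and control testis in the fit (0.000265). It was also higher in FO by DESeq2 (0.0318) and after thinning (0.0476). COL23A1 was lower in GF without GF 1 (0.0267), where GF had 0 counts and control testis 4 and 6. Taken at 3 counts over the GF group, that was 2.98-fold lower. The lower limit of the 95% counting interval was 2-fold.

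Other genes act on collagen chains. Of 31 genes of biosynthesis, processing and crosslinking, 26 were tested, 5 rose, 5 fell and 16 did not pass, with a median log2 fold change of -0.11, where 30.5% of all genes were called. The called genes with the lowest p were CRTAP, of the prolyl 3-hydroxylation complex (-1.34 ± 0.25, adjusted p = 0.00236), P3H2, a prolyl 3-hydroxylase (1.67 ± 0.36, adjusted p = 0.00532), PCOLCE2, which enhances procollagen cleavage (-2.68 ± 0.72, adjusted p = 0.0155), and PLOD1, a lysyl hydroxylase (0.81 ± 0.23, adjusted p = 0.0194). Of 9 tested receptors and uptake genes, DDR2 (-1.75 ± 0.24, adjusted p = 0.000526) and DDR1 (-1.03 ± 0.35, adjusted p = 0.0447), receptor tyrosine kinases for collagen, fell and 7 did not pass (median -0.79). Of 6 tested proteases and inhibitors, the gelatinase MMP2 (-1.88 ± 0.31, adjusted p = 0.0013) and the inhibitors TIMP1 (-1.73 ± 0.27, adjusted p = 0.000846) and TIMP3 (-0.93 ± 0.31, adjusted p = 0.0392) fell and 3 did not pass (median -0.91).

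Against control testis, 2 of 29 tested biosynthesis genes were higher in GF (P3H2 and FKBP14) and 6 lower, and 3 were higher in FO (FKBP10, FKBP14 and PCOLCE2) and 9 lower, where 25.8% of all genes were called in GF and 18.7% in FO. Among 9 receptors and uptake genes, ITGA10 was higher and ITGA1, ITGB1, DDR2 and MRC2 lower in GF, and ITGA1 was lower in FO. Of the 6 proteases and inhibitors, MMP2 (1.12, adjusted p = 0.0453), TIMP1 (1.20, 0.0174) and TIMP3 (1.97, 0.00426) were higher in FO, while in GF the adjusted p of the 6 ran from 0.0601 (TIMP3) to 0.976 (TIMP2).

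Members too sparse to be tested between GF and FO are given in counts. COL2A1 of cartilage had 6 to 12 in FO, 0 to 7 in GF and 3 and 2 in control testis. COL24A1, a fibrillar chain, had 0, 0, 8 and 0 in FO, 23, 42, 8 and 0 in GF and 13 and 2 in control testis. Against control testis neither passed with all libraries in the fit. COL28A1 had 2 to 16 in FO and 0 to 3 in GF, and COL26A1 had 1 to 7 in FO. COL11A2, COL17A1 and COL20A1 were tested in no comparison, with 2 to 10, 0 to 2 and 0 to 1 counts in FO and 0 to 4, 0 to 3 and 0 in GF. In control testis COL11A2 had 2 and 5 counts and COL20A1 0 in both libraries. COL17A1 had 12 and 7 counts there, more than in any graft library, a difference that was not tested.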

How the data were processed

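RNA of 10 samples was made into QuantSeq 3′ libraries, per the labels' protocols. The authors deposited 1 table of raw counts per gene symbol. Build Sscrofa11.1 and DESeq2 1.42.0 are named in the submitters' processing notes; aligner, counter and strand setting: not given in the sources used here. Columns were joined to samples by the letters and number in their titles, with F read as FO. Members, classes, lists and tests were chosen with earlier results of these data known.

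Genes were filtered with filterByExpr (minimum count 10), scaled with TMM and tested with edgeR 4.0.16 (robust quasi-likelihood, R 4.3.3), with Benjamini-Hochberg adjustment over all tested genes and a threshold of 0.05. GF versus FO used 8 libraries, and comparisons with control testis used all 10. The fit was tested on simulated data. Values per library are given for COL1A1, COL1A2, COL3A1, COL4A1, COL4A2, for members called between GF and FO with an average log2 CPM of at least 3, and for up to 2 members of each class and direction with the largest called change against control testis. Of related lists, up to 4 called genes with the lowest p are named. Other members shown by library, and other genes named, were chosen after their values were seen. Ratios used counts plus 0.5 and pairs with at least 20 counts of each gene in every graft library, so pairs within COL4A3/COL4A4, COL4A5/COL4A6 and COL5A1/COL5A2 were not tested. Positions come from RefSeq, where all 43 symbols matched.

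Replicate libraries differed by more than sampling noise (chi-square per degree of freedom 7.1 to 58.9). The highest values, 50.6 to 58.9, were those of GF 1 or GF 2 against GF 3 or GF 4. GF 1 and GF 2 gave 11.8, GF 3 and GF 4 gave 22.7, and pairs of FO libraries gave 10 to 18.9. The GF libraries were thus not one uniform group. Deviations from the group mean correlated weakly between GF and FO libraries of the same number (r over genes = 0.11, 0.28, 0.13 and 0.13). Between libraries of different number r ran from -0.21 to 0.16. GF 1 correlated more with FO 2 (0.15), and GF 4 more with FO 3 (0.16), than with the FO library of the same number. The values thus do not single out pairs by number. The block took the numbers to pair them on the same-number values alone, since the labels give no shared source. With control testis, which has replicates 1 and 2 only, r was -0.05 to 0.07. Alternatives were DESeq2, RLE factors, total counts, no filter, thinning to the lowest total, the replicate block, other libraries in the fit and leaving out libraries.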

Additional observations from a re-analysis of the deposited data

Results flagged for a closer look

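Of 86 groups of 4 libraries checked (FO or GF), 5 held 1 library far from the others, and chance alone picks out about 1 in 20 groups. COL4A2 had 573 CPM in GF 4 and 214 to 259 CPM in the other GF libraries. The fibrillar sum was 2150 CPM in GF 1, where the others had 1300 to 1390 CPM. COL6A6 had 12.4 CPM in GF 3 against 2.77 to 3 CPM, and COL19A1 had 6.78 CPM in FO 4 against 12 to 12.8 CPM. COL23A1 had 2.36 CPM in GF 1 and 0 in the other GF libraries.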

How the results depend on the processing

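Of 2034 values of single genes under the alternatives, 1788 kept direction and call, 142 lost a call, 56 gained one and 48 changed sign, none of the last with a call in either setting. For GF versus FO, 3 members were higher and 4 lower without FO 1 and GF 3 (2312 of all genes called, against 4205), and leaving out 1 library gave 5 to 8 higher and 7 to 13 lower. For GF versus control testis there were 3 higher and 4 lower with only those groups in the fit (2201 of all genes, against 4091), 4 higher and 10 lower with the replicate block, and 1 to 7 higher and 2 to 9 lower without 1 library (1395 of all genes without control 1 and 1141 without control 2). For FO versus control testis 14 were higher with only those groups in the fit and 14 without GF 3 and GF 4 (6600 and 6510 of all genes, against 2972), with 3 to 10 higher and 4 to 10 lower without 1 library (977 of all genes without control 1 and 796 without control 2) and 9 higher and 11 lower with the replicate block. Between GF and FO the block gave 6 higher and 12 lower and changed no other call than those of COL16A1 and COL4A3, and a paired test of the chain ratios cannot go below 0.125. The fibrillar sum of control testis was 3407 CPM with total counts. The COL15A1 to COL18A1 difference ran from -0.21 to 0.22 without 1 library.

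The cause of the sign changes was not tested. For GF versus FO they were in COL25A1 (0.13 with total counts, 0.14 without GF 3 and GF 4, -0.39 to 0.36 without 1 library), COL27A1 (-0.01 with the replicate block, -0.13 without FO 1 and GF 3, -0.61 without GF 3 and GF 4, -0.18 to 0.31 without 1 library), COL5A1 (-0.27 without GF 3 and GF 4) and COL5A3 (-0.07 without GF 3 and GF 4, -0.02 to 0.33 without 1 library). For GF versus control testis they were in COL6A3 (0.06 with total counts, 0.03 with the block, 0.01 without FO 1 and GF 3, 0.19 without GF 3 and GF 4, -0.24 to 0.06 without 1 library), COL13A1 (0.55 thinned), COL23A1 (1.86 thinned, 0.05 without FO 1 and GF 3, 0.48 without GF 3 and GF 4, -4.9 to 0.17 without 1 library), COL8A1 (-0.41 thinned, -0.44 to 0.93 without 1 library), COL27A1 (-0.34 with the block, -0.48 without GF 3 and GF 4, -0.06 to 0.37 without 1 library), COL7A1 (0.03 without GF 3 and GF 4, -1.49 to 0.08 without 1 library), and, without 1 library, COL19A1 (-0.24 to 1.1) and COL2A1 (-1.19 to 0.71). For FO versus control testis they were in COL7A1 (-0.18 thinned, -0.1 with the block, 0 to 0.79 without 1 library), COL27A1 (-0.33 with the block, -0.12 to 0.32 without 1 library) and COL24A1 (-5.52 to 0.48 without 1 library).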
